A study of Mus musculus with 10 samples.

Results

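The comparison set 3 libraries of RAW264.7 cells given LPS and skatole (LPS+Skatole) against 3 libraries of the same cells given LPS with DMSO as the vehicle (LPS), each collected after 12 h. RAW264.7 is a macrophage-like line from a tumour that Abelson leukemia virus raised in a male mouse, so all libraries come from 1 established line. Skatole is 3-methylindole, which gut bacteria make from tryptophan, and the study asked whether it alters where the NF-κB subunit p65 sits in the genome of LPS-stimulated cells. The series holds 10 samples, of which 6 enter this comparison. The 3 libraries given DMSO alone are shown beside them as a description, and the library made without primary antibody was not analysed here. p65 was mapped by CUT&Tag, in which an antibody brings a transposase to its target so that nearby DNA is cut and tagged, from 200000 cells per library. The antibody is given as p65 in the labels and as phosphorylated p65 in the study's methods. The skatole dose of this assay is not given in the sources used here.

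Peaks that overlapped by at least 1 bp, in any of the 9 lists with DMSO included, were joined into a region. A region was gained when it had a peak in 3 of 3 LPS+Skatole libraries and 0 of 3 LPS libraries, and lost when the reverse held. Of the 204430 regions with a peak in any of the 6 lists, 1191 (0.583%) were gained and 263 (0.129%) were lost. The 3 LPS+Skatole lists were longer than the 3 LPS lists, so the counts were repeated in lists cut to 55637 peaks, the length of the shortest. At equal length 784 of 143252 regions (0.547%) were gained and 372 (0.26%) were lost. A region with a peak in all 6 of these lists was shared, and there were 18524 of them. Since 3 libraries against 3 cannot give a two-sided exact p below 0.1, gained and lost regions were described with no test.

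LPS, a component of the outer membrane of Gram-negative bacteria, is sensed by Tlr4 with Cd14 and Ly96. Signalling through Myd88 and Ticam1 frees p65 (Rela) from its inhibitor Nfkbia, and p65 then enters the nucleus and binds κB sites at cytokine, chemokine and feedback genes. Nrf2 (Nfe2l2) is a different factor, held back by Keap1 and released by oxidants and other reactive compounds. It drives genes for glutathione synthesis, cystine uptake, quinone reduction and peroxide removal through a short sequence called the antioxidant response element. The aryl hydrocarbon receptor binds many indoles and acts through the dioxin response element. A p65 peak near a gene is occupancy and not expression.

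Promoter windows that gained regions overlapped are shown first, because the regions at gene starts can be read base by base. Each window is the RefSeq sequence from 250 bases before to 50 bases after a gene's start in GRCm38.p6, read 5′ to 3′ on the gene's strand, and capitals mark a match to TGACNNNGC, the core of the antioxidant response element, on either strand. The Nqo1 window, chr8:107403156-107403455 on the minus strand, is shown because Nqo1, a quinone reductase and a standard Nrf2 target, gained a region at its start. It held no match to any motif searched. The windows of Pacsin2 (chr15:83447831-83448130, minus strand), Hfe (chr13:23710805-23711104, minus strand) and Plscr3 (chr11:69846122-69846421, plus strand) are shown as gained windows that held the core.
Nqo1: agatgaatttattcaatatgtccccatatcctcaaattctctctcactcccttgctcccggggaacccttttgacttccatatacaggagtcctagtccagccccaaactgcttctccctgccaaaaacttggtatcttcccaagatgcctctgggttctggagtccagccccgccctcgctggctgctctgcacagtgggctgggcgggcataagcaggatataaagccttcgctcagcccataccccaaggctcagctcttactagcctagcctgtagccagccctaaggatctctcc
Pacsin2: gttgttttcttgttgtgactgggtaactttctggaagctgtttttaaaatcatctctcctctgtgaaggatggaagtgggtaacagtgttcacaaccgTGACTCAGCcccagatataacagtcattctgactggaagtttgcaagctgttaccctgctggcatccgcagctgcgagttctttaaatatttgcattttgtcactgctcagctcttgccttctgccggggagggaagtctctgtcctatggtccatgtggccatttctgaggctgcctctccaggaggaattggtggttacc
Hfe: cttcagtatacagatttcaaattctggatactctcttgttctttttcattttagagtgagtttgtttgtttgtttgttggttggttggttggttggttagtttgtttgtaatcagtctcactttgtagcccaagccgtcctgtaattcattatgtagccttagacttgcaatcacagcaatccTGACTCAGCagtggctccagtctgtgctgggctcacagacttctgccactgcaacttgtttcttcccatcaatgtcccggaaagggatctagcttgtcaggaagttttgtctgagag
Plscr3: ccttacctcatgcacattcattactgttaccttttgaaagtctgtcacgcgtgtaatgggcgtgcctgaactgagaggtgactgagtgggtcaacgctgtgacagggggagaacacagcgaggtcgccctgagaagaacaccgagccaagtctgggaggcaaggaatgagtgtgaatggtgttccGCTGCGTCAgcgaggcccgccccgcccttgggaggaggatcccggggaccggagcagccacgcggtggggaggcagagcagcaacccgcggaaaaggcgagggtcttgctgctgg

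Windows that lost regions overlapped are shown for contrast, with capitals marking matches to the κB consensus, the binding sequence of NF-κB. These are Camta2 (chr11:70687481-70687780, minus strand), Gng4 (chr13:13784057-13784356, plus strand) and D830031N03Rik (chr4:123411862-123412161, minus strand).
Camta2: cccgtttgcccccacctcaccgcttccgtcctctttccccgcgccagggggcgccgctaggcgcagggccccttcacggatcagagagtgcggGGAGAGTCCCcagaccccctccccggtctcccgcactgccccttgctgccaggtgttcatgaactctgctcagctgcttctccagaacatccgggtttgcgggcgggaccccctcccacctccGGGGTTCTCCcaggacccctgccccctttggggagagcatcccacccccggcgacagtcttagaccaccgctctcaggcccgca
Gng4: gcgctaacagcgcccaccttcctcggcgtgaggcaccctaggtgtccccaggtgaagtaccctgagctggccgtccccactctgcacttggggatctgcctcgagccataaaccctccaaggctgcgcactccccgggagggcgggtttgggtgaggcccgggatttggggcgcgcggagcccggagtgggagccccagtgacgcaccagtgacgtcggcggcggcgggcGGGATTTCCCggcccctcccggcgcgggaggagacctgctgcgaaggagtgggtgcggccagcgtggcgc
D830031N03Rik: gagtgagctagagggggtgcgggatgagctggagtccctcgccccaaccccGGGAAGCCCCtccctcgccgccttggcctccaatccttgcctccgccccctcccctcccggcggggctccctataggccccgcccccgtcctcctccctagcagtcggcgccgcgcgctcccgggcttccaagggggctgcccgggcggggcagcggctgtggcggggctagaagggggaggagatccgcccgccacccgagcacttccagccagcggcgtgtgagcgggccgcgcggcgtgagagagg

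Both strands of every window were searched for 4 motifs, of which TGANTCA and TGACNNNGC can overlap each other. Gained regions overlapped 46 windows of 41 genes, of which 25 lay wholly inside the region and 9 shared under 150 bp with it, down to 1 bp. Lost regions overlapped 13 windows of 12 genes, each by at least 155 bp. Shares count matches anywhere in the window. The κB consensus was found in 0 of 46 gained windows and in 3 of 13 lost windows (23.1%), against 4.81% of all 21262 windows and 5.32% of the 7892 windows in shared regions. TGACNNNGC was found in 11 gained windows (23.9%) and 1 lost window (7.69%), against 13.0% of all windows and 14.6% of those in shared regions. In 10 of the 11 gained windows the match lay inside the region, at 9 distinct sites. TGANTCA, the AP-1 site, was in 4 gained windows (8.70%) and 1 lost window (7.69%) against 6.99% of all windows and 4.69% of those in shared regions, and the match in the Osgin1 window lay outside its region. GCGTG, the core of the dioxin response element, was in 19 gained windows (41.3%) and 6 lost windows (46.2%) against 38.5% of all windows and 54.99% of those in shared regions. In lists of equal length the κB consensus was in 0 of 31 gained and 4 of 23 lost windows, and TGACNNNGC in 8 gained and 0 lost windows. The Camta2 window held 2 κB matches. These shares describe small sets of windows, and a match is a run of letters and not a bound site.

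The fragments at the summit of a peak were recovered from its fold enrichment and p-value, and they give the depth behind each call. At the Plscr3 window the LPS+Skatole peaks held 129, 113 and 90 fragments. At the Hfe window they held 54, 30 and 32 fragments, 1 DMSO library had a peak of 25, and the region was not gained at equal length. Hfe encodes a regulator of iron uptake, and Plscr3 a lipid-binding protein of mitochondria. The lost Camta2 region held 38, 33 and 35 fragments in LPS and the lost Gng4 region held 23, 26 and 26. DMSO peaks of 32 and 34 fragments were called at the Camta2 region and none at the Gng4 region. The D830031N03Rik region held 33, 13 and 40 fragments in LPS and 24, 16 and 16 in DMSO, so it had a peak in all 6 libraries without skatole.

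The libraries differed in the number of peaks more than in background. The LPS lists held 55637, 58109 and 63498 peaks and the LPS+Skatole lists 78658, 78136 and 80153, with no overlap between the groups. The fragments expected at a random place were 2.29, 2.23 and 2.34 in LPS and 2.34, 2.26 and 2.39 in LPS+Skatole, and the lowest summit called held 11 fragments in each of the 6 libraries. All 9 macrophage marker genes checked, among them Spi1, Csf1r, Cd14 and Lyz2, had a peak at a gene end in all 6 libraries. Of 42 genes of other tissues, 7 had one in all 6 libraries and 11 in none. Nothing in the labels says that the libraries came from separate cultures, so every p-value here measures the spread between these samples, which may be technical.

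Genes of the Nrf2 pathway stood among the gained regions. Of the 27 Nrf2 target and oxidant clearance genes with a peak, 6 (22.2%) had a gained region in the gene body or within 3 kb of either end, against 762 of 17909 genes (4.25%) overall. They were Nqo1, Slc7a11, Gclm, Prdx1, Osgin1 and Sqstm1. At equal length 5 of 27 (18.5%) had one, against 488 of 16778 genes (2.91%), and Osgin1 was the gene that dropped out. Within 3 kb of a gene end alone the count was 3 of 27, Nqo1, Gclm and Prdx1, against 252 of 16282 genes (1.55%). One gene of the list, Txnrd1, had a lost region, against 216 genes with a lost region overall (1.21%). The median length of the list's genes was 13039 bp against 22199 bp over all genes, and they had a median of 7 regions each against 5.

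The Nqo1 region, chr8:107403174-107403786, covered the gene's start. Its summit held 47, 40 and 42 fragments in the 3 LPS+Skatole libraries, and no peak was called there in any LPS or DMSO library. Slc7a11 encodes the cystine carrier that supplies glutathione synthesis. Its region, chr3:50431979-50433944, lay 9669 bp downstream of the start and held 28, 25 and 44 fragments in LPS+Skatole. One DMSO library had a peak of 19 fragments there, so this region was present in unstimulated cells in 1 of 3 libraries.

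Gclm, the modifier subunit of glutamate-cysteine ligase, the enzyme that starts glutathione synthesis, had 2 gained regions. The upstream one, chr3:122242564-122243545, ended 2012 bp before the start and held 41, 58 and 86 fragments in LPS+Skatole. The caller's local background there was 6.35, 10.8 and 48.3 fragments, so the peak with the most fragments was also the one on the highest background, and this region was not gained at equal length. The downstream one, chr3:122252389-122252926, held 35, 21 and 29 fragments and was gained in both kinds of list. A further region at the Gclm start was shared by all 6 libraries, with 126, 74 and 111 fragments in LPS and 163, 136 and 98 in LPS+Skatole, values that overlap.

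Prdx1 encodes a peroxidase that removes hydrogen peroxide. Its gained region, chr4:116698030-116701274, lay 12431 bp downstream of the start, also fell to the neighbouring gene Mmachc, and held 65, 40 and 62 fragments. Sqstm1 encodes p62, an autophagy receptor that binds Keap1, and its region chr11:50205190-50206000 held 27, 27 and 24 fragments. Osgin1, an oxidant-induced growth inhibitor, had a region in its body, chr8:119436254-119436928, that lay 219 bp upstream of the start in the promoter table. It held 60, 71 and 115 fragments in LPS+Skatole over a local background of 28.8, 29.9 and 58.9, and 1 DMSO library had a peak of 30. The lost Txnrd1 region, in the gene for thioredoxin reductase, held 16, 12 and 13 fragments in LPS, close to the lowest summits called.

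**Figure D1:**
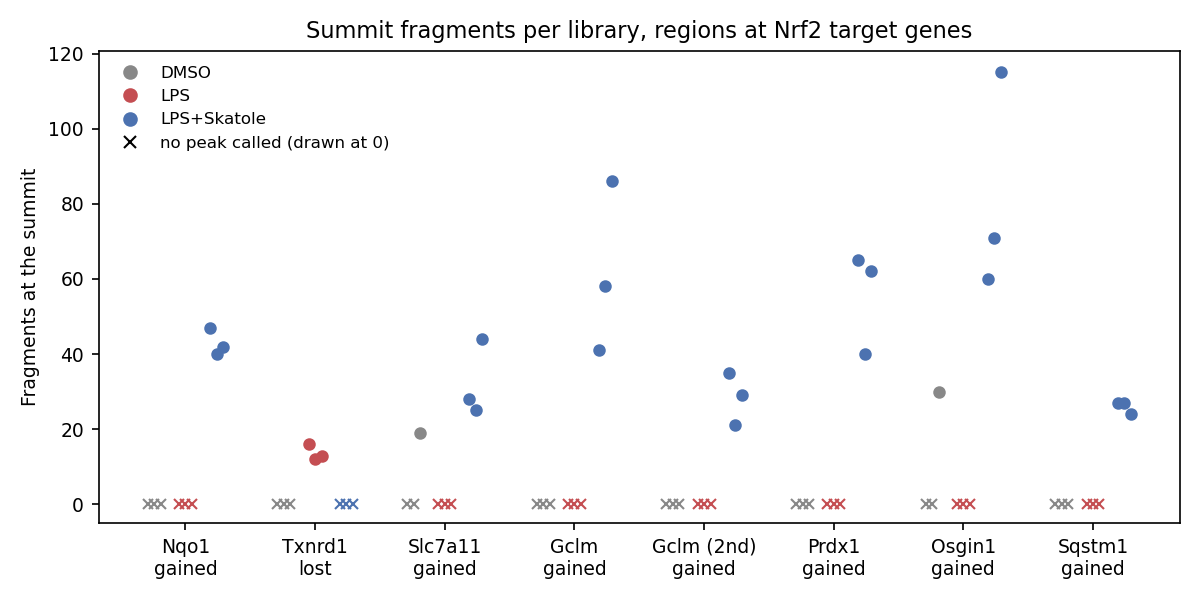
Fragments at the summit in each library (y axis, fragments) for the gained and lost regions of Nrf2 target genes (x axis), with a cross drawn at 0 where no peak was called. The 7 gained regions have a peak in every LPS+Skatole library, from 21 to 115 fragments, and in no LPS library, and Slc7a11 and Osgin1 each have 1 DMSO peak.

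Other genes of oxidant and energy metabolism had gained regions singly, at shares to be read against the 4.25% of all genes. In glutathione metabolism 4 of 48 genes (8.33%) had one: Gclm, Mgst2, Idh2 and Rrm2b. Mgst2, a microsomal glutathione S-transferase, had 2, with 50, 37 and 68 fragments in the upstream region and 24, 27 and 17 in the downstream one, both gained at equal length. Idh2, which makes NADPH in mitochondria, held 13, 22 and 17 fragments and was not gained at equal length. In respiratory complex I 2 of 37 genes (5.41%) had a gained region, near the share of all genes. The Ndufb4 region covered the gene's start and held 108, 148 and 126 fragments in LPS+Skatole over a background of 52.3, 50.5 and 26.8, with 1 DMSO peak of 54. The Ndufa4 region held 20, 16 and 55 fragments. In glycolysis 2 of 20 genes (10.0%) had one, Pgk1 with 56, 50 and 55 fragments and Pfkfb3 with 19, 24 and 27. Pgk1 makes ATP in glycolysis, and Pfkfb3 makes an activator of the pathway. No gene of complexes II, III or IV and none of the 11 NADPH oxidase genes had a gained or lost region. In lists of this size 1 gene moves the share by 2 or more points.

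Inflammatory lists had 0 to 3 genes with a gained or lost region each, where all genes had 4.25% gained and 1.21% lost. Among 19 genes for NF-κB subunits and their feedback inhibitors, 1 (5.26%) had a gained region: Tnip1, a brake on NF-κB signalling, with 24, 35 and 32 fragments, which was not gained at equal length. Among 24 cytokine genes 1 (4.17%) had one, Il33, an alarmin of the IL-1 family, with 18, 25 and 39 fragments, gained at equal length too. None of the 17 chemokine genes, the 14 inflammasome genes or the 23 interferon response genes had a gained region. In the LPS receptor and Toll-like receptor list, 1 of 28 genes (3.57%) had a gained region and 2 (7.14%) a lost one. Traf3 had a gained region (21, 13 and 25 fragments), while Tab2 (16, 21 and 17 in LPS) and Irf5 (25, 33 and 12 in LPS) had lost ones. Irf5 is a transcription factor of inflammatory macrophages, and Tab2 an adaptor of the kinase Tak1. At equal length Tab2 kept its class, and Traf3 and Irf5 did not. Stat2, which carries interferon signals, had a lost region 2238 bp downstream of its start with 19, 19 and 24 fragments in LPS. In MAPK signalling 3 of 36 genes (8.33%) had a gained region, Map2k6, Map3k5 and Jun. Of these, the Map2k6 region (41, 21 and 26 fragments) was also gained at equal length.

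Ptges, which makes prostaglandin E2, had a gained region of 93, 58 and 76 fragments over a background of 49.6, 11.4 and 13.1, which was not gained at equal length. Pdcd1lg2, the checkpoint ligand PD-L2, had one of 22, 22 and 20 fragments that was. Cd44, an adhesion receptor, had a gained and a lost region side by side in its body, at chr2:102876859-102877623 (64, 21 and 24 fragments in LPS+Skatole) and chr2:102877670-102878233 (35, 32 and 25 in LPS). A peak was thus called there in all 6 libraries, at neighbouring positions. Nfatc2, a calcium-regulated transcription factor, had a gained region of 46, 37 and 57 fragments. In the list of genes shown or named by the study, Nfatc2, Gclm and Nqo1 had a gained region (7.32%, against 4.25% of all genes) and Stat2 a lost one (2.44%, against 1.21%). Being chosen in part on these libraries, that list is not independent evidence of a direction. It has 41 genes.

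Genes of macrophage identity appeared on both sides, and 2 genes of alternative activation among the lost regions. Gained and lost shares of a list were not tested against each other. Cebpa, Runx1 and Mpeg1 had gained regions, 3 of 21 macrophage genes (14.3%) against 4.25% of all genes, of which Cebpa (26, 32 and 43 fragments) was gained at equal length. At equal length the macrophage list had 1 gained (4.76%) and 2 lost genes (9.52%) of 21, against 2.91% and 1.82% of all genes. The lost ones were Spi1 and Fcgr3. In the full lists the Fcgr3 region had a peak of 181 fragments in LPS+Skatole replicate 2, which the cut removed. It held 296, 237 and 319 fragments in LPS and 129, 159 and 179 in DMSO. Spi1, which encodes the macrophage factor PU.1, had a lost region of 22, 16 and 21 fragments in LPS. In the alternative activation list no gene had a gained region and 2 of 22 (9.09%) had a lost one, against 1.21% of all genes: Pparg, a lipid sensor of alternatively activated macrophages, with 24, 14 and 16 fragments in LPS, and the scavenger receptor Msr1 with 20, 26 and 20. At equal length Socs1, a brake on cytokine receptors, joined them, against 306 genes with a lost region overall (1.82%). In the full lists its region had a peak of 13 fragments in LPS+Skatole replicate 1, which the cut removed. In the aryl hydrocarbon receptor list, of 13 genes, Cyp1b1, a target of that receptor, had a lost region 424 bp upstream of its start (16, 17 and 21 fragments in LPS), and Nqo1 is the gained gene. Among ribosomal protein genes 0 of 54 had a gained region and 1 (1.85%), Rps12, a lost one. At equal length Rpl3 and Rpl10a joined it, 3 of 54 (5.56%), against 1.82% of all genes. In the full lists the Rpl3 region had a peak of 30 fragments in LPS+Skatole replicate 2, against 44, 33 and 33 in LPS. The Rpl10a region had one of 51 in LPS+Skatole replicate 1, against 37, 35 and 44 in LPS. The cut removed both peaks. Lost regions within 3 kb of a gene end fell to 84 of 16282 genes (0.516%).

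**Figure D2:**
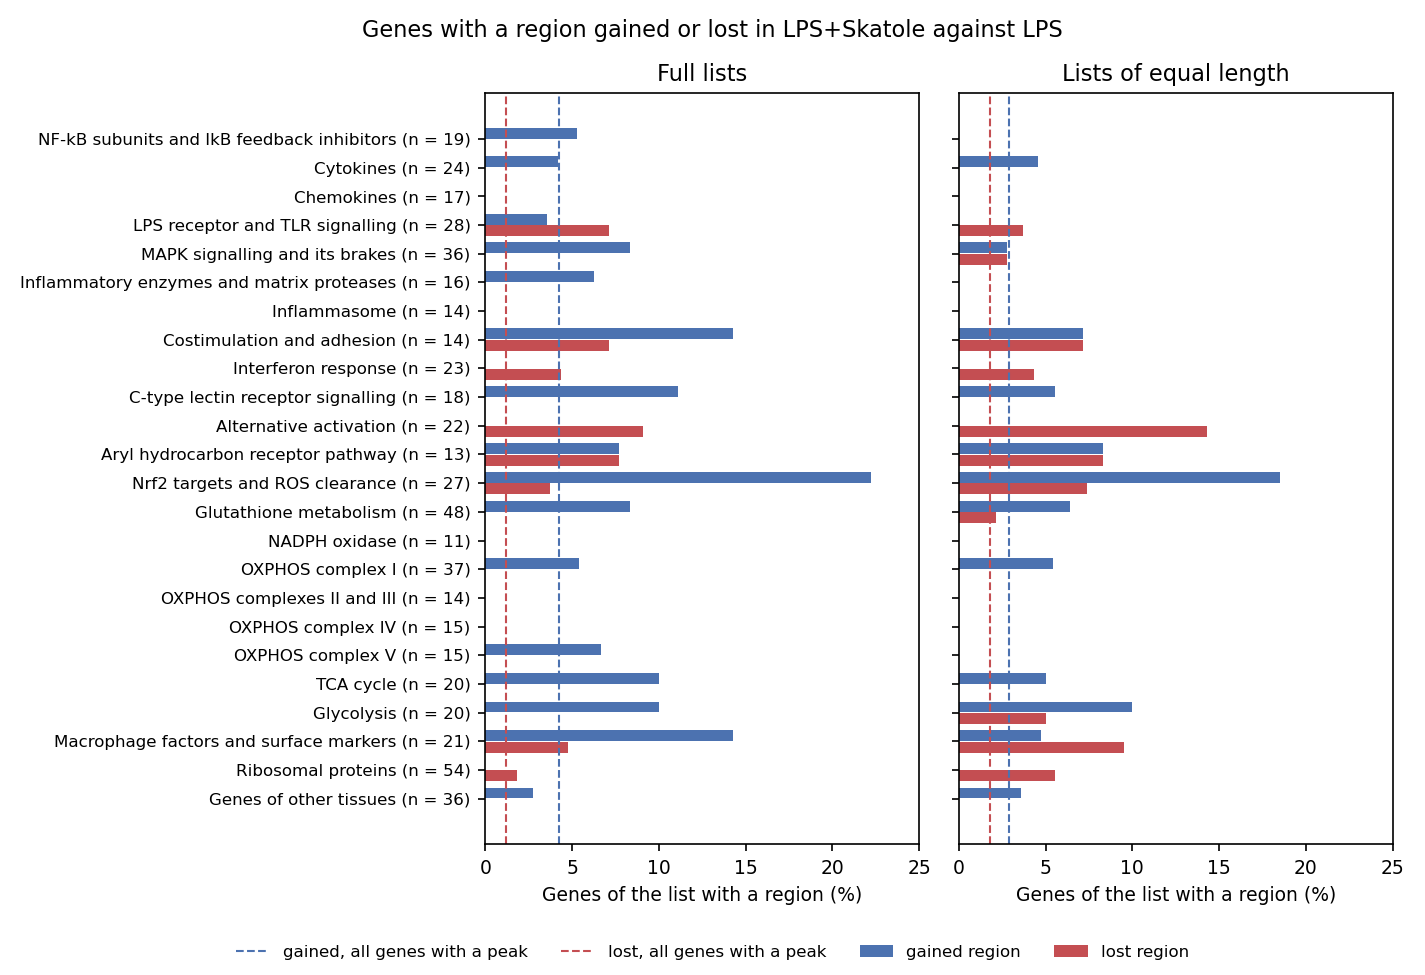
Share of the genes of each list (x axis, percent of genes with a peak) that had a gained or a lost region, in the full lists and in lists of equal length, with n for the full lists and dashed lines at the shares of all genes. The Nrf2 list has the highest gained share in both panels, 22.2% and 18.5%, and the alternative activation list, like several others, has no gained gene in either.

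Of the 10 gained regions of best mean rank, 6 lay between genes. The first was at the end of Cpb2, a plasma carboxypeptidase, at chr14:75236981-75239631, and held 47, 72 and 88 fragments in LPS+Skatole with no peak in LPS or DMSO. The second was in the body of Rbms1, an RNA-binding protein, with 65, 57 and 61 fragments, and the next was at Plcb2, a phospholipase C of blood cells, with 66, 62 and 60 fragments and DMSO peaks of 26 and 19. The Pacsin2 region held 82, 80 and 103 fragments. It covers the window printed above, and 1 DMSO library had a peak of 33. The other 6 were intergenic, nearest to Ankrd66, Serp2, Zfp664, Pth, Pabpc2 and Ccdc54, of which Zfp664 held 58, 53 and 65 fragments and Serp2, 230473 bp away, 80, 83 and 63. All 10 were gained at equal length too.

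The lost region of best mean rank was intergenic, 34405 bp from BC107364, and held 75, 63 and 77 fragments in LPS and no peak elsewhere. Atp8a1, a phospholipid flippase, followed with 33, 41 and 42 fragments. The Exosc2 region, at the gene of an RNA exosome subunit, held 72, 94 and 137 fragments and had 1 DMSO peak of 61. Itpr3, a calcium channel of the endoplasmic reticulum, held 25, 31 and 48 fragments, and the kinase Mink1 held 40, 24 and 35. The others lay in or near Gm39469, Wdfy1, Agtpbp1, Spsb4 and Plekha1, with 20 to 46 fragments. All 10 were lost at equal length too.

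Several genes had more than 1 gained region. Etv6, a transcriptional repressor of blood cells, and Peak1, a pseudokinase of the cytoskeleton, had 4 each. Snx30, St3gal3, Hivep3, Ankrd11, Serpinb1b, Pde4d and Dlgap1 had 3 each, and 42 genes had at least 2, among them Gclm, Mgst2 and Bach2. At equal length Etv6 and Peak1 kept 2 each. Serpinb1b spans 15877 bp and Gclm 21729 bp, while Etv6 spans 234459 bp and Pde4d 1301793 bp. The median length was 63324.5 bp for genes with a gained region and 51186 bp for those with a lost one, against 22199 bp for all genes with a peak. The part of gene length in these counts was not tested. Uvrag, Limk2, Mybbp1a, Spns2, Abr and Lmln had 2 lost regions each, and 22 genes had both a gained and a lost region.

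Gained and lost regions had fewer fragments and a lower share at gene ends than shared ones, and both values were close to or above those of the remaining regions, in none of these classes. Of gained regions 17.7% (211) lay within 3 kb of a gene end, 46.5% in gene bodies and 35.8% between genes. For lost regions the shares were 25.1%, 50.2% and 24.7%, and for regions shared in the full lists 47.0%, 31.4% and 21.6%. The median summit held 29 fragments in gained regions and 21 in lost regions, against 52 in LPS and 66 in LPS+Skatole in shared regions. Median widths were 940 bp, 907 bp and 1987 bp. The 183177 other regions had 16.0% at gene ends, median summits of 18 fragments in LPS and 19 in LPS+Skatole, and a median width of 460 bp. A DMSO peak was present in 388 gained regions (32.6%) and 102 lost ones (38.8%), against 93.6% of shared regions. The rule's threshold can be read from its neighbours. In gained regions the weakest LPS+Skatole peak had a median −log10 p of 10.9, and 98 regions (8.23%) had one under 6. Just outside the rule, 2162 regions had 3 LPS+Skatole peaks and 1 LPS peak, whose median −log10 p was 13.4. For lost regions the median was 9.06, and 811 regions had 1 LPS+Skatole peak, with a median of 17.3.

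The share of peaks at gene ends was lower with skatole in the full lists. It was 30.2%, 29.6% and 28.8% with LPS alone, against 25.1%, 25.6% and 24.6% once skatole was added, and the groups did not overlap. The means were 29.5% ± 0.720 and 25.1% ± 0.467 (SD, n = 3 each), and they differed by -4.44 points (two-sided exact permutation test, p = 0.1, the smallest that 3 against 3 allows). At equal length the means were 30.4% and 29.5%, a difference of -0.91 points, again without overlap.

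Where both groups had a peak, its place in the list was compared. Peaks were ranked from the top by −log10 p, and the shift of a region is its mean log2 rank in LPS minus that in LPS+Skatole, so a positive shift means nearer the top with skatole and 1 unit is a doubling of rank. By limma, 0 of 18524 shared regions (0%) rose and 1 (0.0054%) fell at an adjusted p under 0.05. At an unadjusted p under 0.05 the counts were 901 and 887. In 1287 regions (6.95%) all 3 LPS+Skatole ranks were nearer the top than all 3 LPS ranks, and in 1440 (7.77%) the reverse held. Shifts between the quartiles ran from -0.49 to 0.44, with a median standard error of 0.56, and 2999 regions (16.2%) had a shift beyond 1 in either direction. Spearman's rho of the ranks was 0.735 on average over the 3 pairs of LPS libraries, 0.687 over the 3 pairs of LPS+Skatole libraries and 0.672 over the 9 pairs between groups, over the same regions and with libraries shared between pairs.

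The region that fell lay between genes at chr19:61266376-61267256, 37915 bp from Csf2ra, a receptor subunit for GM-CSF. It ranked 6, 7 and 6 in LPS and 70, 36 and 89 in LPS+Skatole, with 1563, 1386 and 1662 fragments against 1007, 1137 and 1006, and 965, 1335 and 1461 in DMSO. The groups did not overlap on either measure. Its shift was -3.27 ± 0.41 (SE, limma adjusted p = 0.002883). The local background there was 163.6, 159.5 and 172.7 fragments in LPS and 173.6, 167.6 and 177.2 in LPS+Skatole, against medians of 2.64 and 2.74 over all shared regions. The call was lost without LPS replicate 1 (limma adjusted p = 0.0793) and without LPS replicate 3 (limma adjusted p = 0.109), with a shift of -3.23 in both. It was also lost without the trend (limma adjusted p = 0.0725), when ranked by fold enrichment (shift -1.50, limma adjusted p = 0.344) and on rank percentiles (limma adjusted p = 0.954).

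Further regions had the smallest p without passing the threshold, with limma adjusted p from 0.0622 to 0.123. Golim4, a Golgi protein, had 25, 31 and 35 fragments in LPS and 103, 101 and 112 in LPS+Skatole in its gene body (shift 2.77 ± 0.51, SE). Ptger2, a receptor for prostaglandin E2, had 20, 20 and 18 against 58, 92 and 70 at its gene end (2.50 ± 0.51). Pkn3, a kinase, had 35, 38 and 66 against 121, 116 and 127 in a region shared with Zdhhc12 (3.49 ± 0.60). The groups did not overlap in any of these, and DMSO had no peak in 3 of 3 libraries at Golim4. Atg7, an autophagy enzyme, had 63, 46 and 85 against 121, 137 and 133, and Pik3cb, a phosphoinositide 3-kinase, 34, 44 and 50 against 74, 86 and 88. In the other direction, a region 88961 bp from Ube2v2 had 53, 61 and 49 fragments in LPS and 25, 22 and 20 in LPS+Skatole (-2.56 ± 0.49). The region shared by Nfe2l3, a relative of Nrf2, and Hnrnpa2b1 had 76, 74 and 96 against 32, 50 and 42 (-2.49 ± 0.53). A region 59294 bp from Wnt7b had 100, 68 and 86 against 45, 40 and 38.

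A rank depends on the caller's local background as well as on the fragments. Isg20, an interferon-induced exonuclease that shares a region with Aen, had 67, 82 and 60 fragments in LPS and 85, 105 and 76 in LPS+Skatole, values that overlap, on a background of 28.9, 28.2 and 14.8 against 2.34, 2.26 and 2.39 (shift 2.98 ± 0.54). At Taf1d and Cep295 the fragments were 271, 261 and 252 against 270, 298 and 331, on a background of 87.1, 85.4 and 92.8 against 23.0, 21.8 and 26.7. At Atf5, Nup62 and Il4i1b they were 207, 206 and 222 against 232, 239 and 237, on a background of 5.67, 5.47 and 5.75 against 23.5, 22.6 and 23.9, and the shift was -2.85 ± 0.60. The part of the background in these shifts was not tested. Of the 1287 shared regions nearer the top in LPS+Skatole, 1009 (78.4%) also had centred fragment counts that were all higher there. Of the 1440 nearer the top in LPS, 1217 (84.5%) had counts that were all lower with skatole. Over all 18524 shared regions these shares were 6.91% and 9.79%. A rank is computed in part from these same fragments, so the overlap was built in and is not separate evidence.

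**Figure D3:**
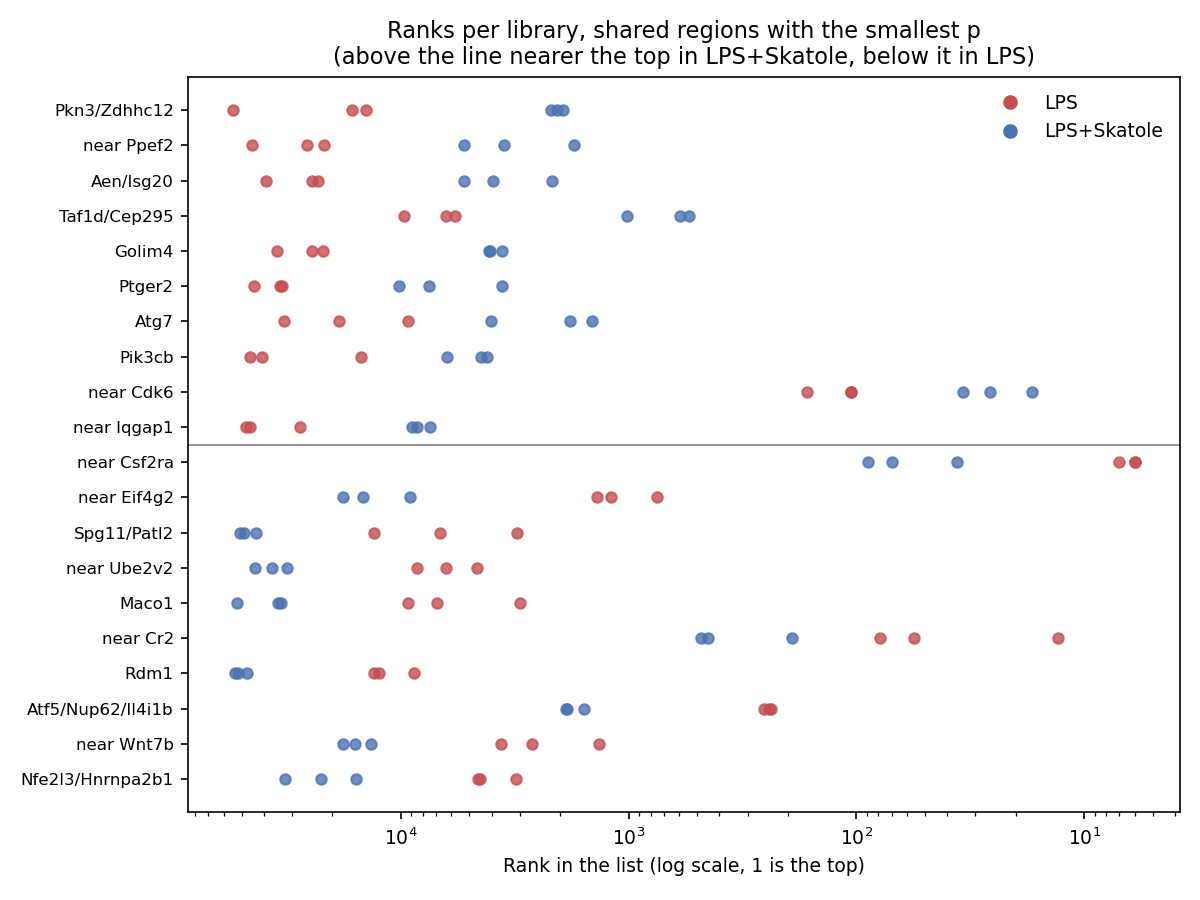
Rank in each list of equal length (x axis, log scale, the top of the list at the right) for the 10 shared regions with the smallest p in each direction (y axis, nearest genes), 1 point per library. The groups do not overlap in any of the 20 regions, and the region near Csf2ra (ranks 6 to 7 against 36 to 89) is the one that passed the threshold.

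The fragments themselves were compared on a log2 scale centred on the median of shared regions, which removed a median that was 1.27 times higher with skatole. Relative to that median, 5 regions were higher and 13 lower with skatole at a limma adjusted p under 0.05. One of the 13, nearest to Galc, had more fragments with skatole before centring (23166, 22428 and 24858 against 26546, 25424 and 26049) and a rank shift of 0. In a region with several peaks the fragments need not come from the same summit in each library. The following were named after their values were seen. Clic4, a chloride channel protein, had 25, 43 and 54 fragments in LPS and 287, 265 and 254 in LPS+Skatole (2.45 ± 0.25, SE, limma adjusted p = 4.17e-05). Lrrfip1, a nucleic acid sensor, had 28, 29 and 28 against 139, 116 and 102, and a region in the body of Peak1, the gene with 4 gained regions, had 24, 24 and 25 against 81, 106 and 80. Icam1, the adhesion molecule that NF-κB induces, had 174, 188 and 237 against 128, 113 and 95 in this region (-1.18 ± 0.19), whose rank shift was -0.35 with ranks that overlapped. Its best-ranked shared region, chr9:21029395-21033756, had 156, 193 and 155 against 142, 187 and 220, which overlap. Xbp1, a factor of the unfolded protein response, had 181, 185 and 237 against 81, 87 and 68 (-1.70 ± 0.20). The groups did not overlap in these 5 regions. Ranks did not always follow: Xbp1 was nearer the top with skatole on all ranks, and the rank shift at Peak1 was -0.39. At Clic4 the rank shift was 0.29, with ranks that overlapped. Of the 5 higher regions 2 had ranks all nearer the top in LPS+Skatole, and of the 13 lower ones 9 had ranks all nearer the top in LPS.

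Regions at gene ends moved down the list with skatole relative to those elsewhere. The median shift was -0.18 over 8708 regions at gene ends, of which 39.6% were positive, 0.09 over 5826 in gene bodies (55.2% positive) and 0.12 over 3990 between genes (57.2% positive), against -0.03 over all. Ranks were all nearer the top in LPS at 10.3% of the gene end regions and all nearer the top in LPS+Skatole at 4.44%. These are differences of under 0.3 on the log2 scale, below the median standard error of a single region, over regions that share the same 6 libraries.

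**Figure D4:**
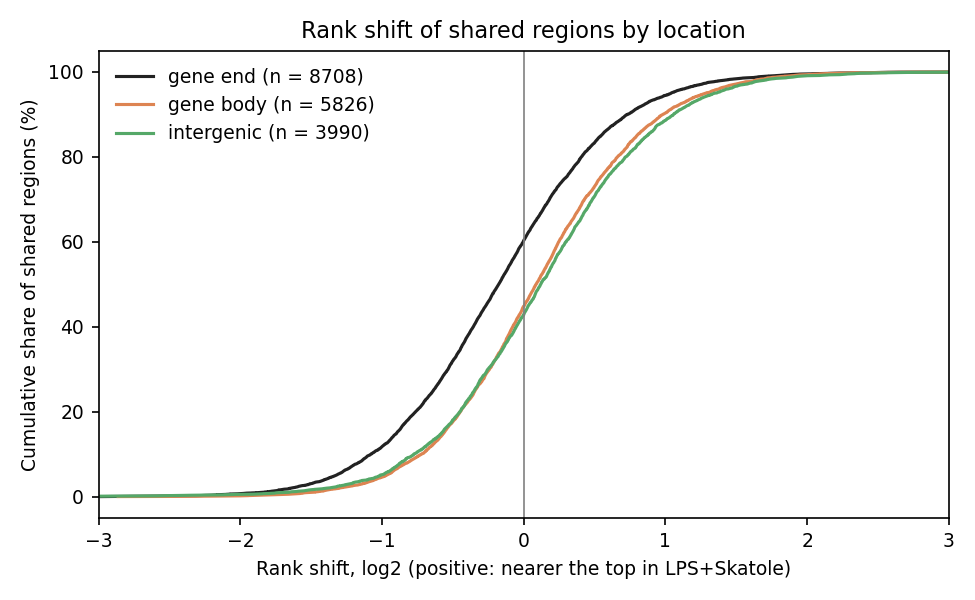
Cumulative share of shared regions (y axis, percent) by rank shift (x axis, log2, positive when nearer the top in LPS+Skatole) at gene ends, in gene bodies and between genes. The curve for gene ends lies to the left of the other curves, with a median of -0.18 against 0.09 and 0.12.

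Each gene was then followed by its best shared region, the one of best mean rank, and a region at neighbouring genes counted for each of them. Over 10338 genes the median shift was -0.14 and 4356 (42.1%) were positive, with 527 genes (5.1%) all nearer the top in LPS+Skatole and 1034 (10%) all nearer the top in LPS. No gene of the lists passed an adjusted p under 0.05 by limma, and the smallest was 0.0741, for Isg20. The lists are therefore given by their medians and by the genes whose groups did not overlap.

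Il1b, Il6 and Tnf, cytokine genes that p65 is known to drive, had shifts on both sides of 0. Il1b had shift 0.08, with 56, 49 and 77 fragments in LPS and 68, 57 and 114 in LPS+Skatole. Il6 had shift 0.10, with 27, 16 and 19 against 30, 29 and 31, and Tnf had -0.85, with 145, 145 and 134 against 129, 140 and 121. The ranks of these 3 genes overlapped between the groups. Fragments here are not centred, and their median over shared regions was 1.27 times higher with skatole. The ranks of Ccl5 (-0.17), Mmp9 (0.13), Ptgs2 (0.03) and Tnfaip3 (-0.62) overlapped too. Over 16 cytokine genes the median was -0.10. Csf1, the macrophage growth factor, was the gene with all ranks nearer the top in LPS (6.25%, against 10% of all genes). Cxcl16 was the chemokine gene on the other side (8.33%, against 5.1% of all genes), with 189, 73 and 213 against 266, 258 and 358 fragments. Over the 12 chemokine genes the median was 0.30. In that median the region shared by Ccl3 and Ccl4 (0.85) and the one shared by Cxcl1 and Cxcl2 (0.47) each entered for both genes. The 0.30 thus rests in part on regions counted more than once. Nos2, the inducible nitric oxide synthase, ranked 1952.5, 713.5 and 1281.5 in LPS and 3502.5, 3781.5 and 3819 in LPS+Skatole without overlap (-1.61 ± 0.62, SE, limma adjusted p = 0.409). Its fragments were 88, 122 and 112 against 89, 85 and 88.

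Of the 19 genes for NF-κB subunits and inhibitors, 4 (21.1%) had a positive shift, against 42.1% of all genes, and the median was -0.35. None had ranks without overlap, against 5.1% of all genes in one direction and 10% in the other. Rela itself had -0.87 ± 0.63, with 84, 74 and 110 fragments against 71, 85 and 104. Nfkbia, which encodes the inhibitor that LPS induces, had the lowest shift, -2.84 ± 1.13, and its ranks were spread within each group: 9409, 316 and 509 in LPS and 1024, 25219 and 21620 in LPS+Skatole. Its local background was 83.7, 5.06 and 5.32 in LPS and 5.37, 2.26 and 90.2 in LPS+Skatole, so the libraries of a group were not measured against a like background there. Its fragments were 228, 189 and 183 in LPS and 168, 29 and 210 in LPS+Skatole. The region is 6922 bp wide, and its best-ranked peak need not be at the same place in each library.

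In the LPS receptor list Irf7, a driver of interferon genes, ranked 50875, 31180 and 23048 in LPS and 8494.5, 4439 and 10619 in LPS+Skatole (2.17 ± 0.52, limma adjusted p = 0.201). Its fragments were 59, 48 and 89 against 79, 103 and 108, which overlap. Tlr4, the receptor itself, had 56, 46 and 53 against 75, 78 and 84 without overlap (0.56 ± 0.55), and Traf3 had 45, 40 and 39 against 82, 68 and 65 (1.11 ± 0.56) beside its gained region. On the other side were Ticam2, an adaptor of Tlr4, which ranked 10081, 10463 and 11108 in LPS and 19344.5, 23597.5 and 42064 in LPS+Skatole (-1.34), and Tab2 (-0.44), whose other region was lost. In the MAPK list Jund, an AP-1 subunit, ranked 184, 69 and 166 in LPS and 874, 738 and 322 in LPS+Skatole (-2.21 ± 0.63), and Map2k7 had -1.98 ± 0.66. Mapk8, the kinase JNK1, had -2.10 ± 0.60. Its ranks in LPS+Skatole, 34495, 8781 and 44718.5, were spread widely. Map3k14, the kinase of the non-canonical NF-κB pathway, had 161, 154 and 181 against 224, 288 and 285 fragments (1.69 ± 0.64). Ranks without overlap nearer the top in LPS+Skatole fell to 12.5% of the LPS receptor list and 6.25% of the MAPK list, against 5.1% of all genes. Nearer the top in LPS the shares were 8.33% and 9.38%, against 10%.

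Surface and activation genes were divided. Cd274, the checkpoint ligand PD-L1, had 51, 52 and 71 fragments in LPS and 97, 106 and 148 in LPS+Skatole (1.53 ± 0.62, limma adjusted p = 0.428), beside the gained region at Pdcd1lg2. Cd40, a costimulatory receptor, and Icosl had all ranks nearer the top in LPS (-1.29 ± 0.61 and -0.88 ± 0.52). Of 10 costimulation and adhesion genes, 1 (10%, against 5.1% of all genes) lay nearer the top in LPS+Skatole without overlap. In LPS it was 2 (20%, against 10%). Trem2, a lipid receptor of macrophages, had 97, 72 and 58 against 171, 123 and 148 (2.00 ± 0.69, limma adjusted p = 0.360). Trem2 belongs to the alternative activation list, of which 14 genes had a shared region. Their median shift was 0.14 and 8 (57.1%) were positive, against -0.14 and 42.1% for all genes. Besides Trem2, Socs1 had ranks without overlap, all nearer the top in LPS. That is 1 gene of 14 (7.14%) in each direction, against 5.1% and 10% of all genes. Stat2 had 138, 127 and 124 against 172, 172 and 227 at its gene end (1.17 ± 0.64), opposite in direction to its lost region. Fcgr1, the high-affinity IgG receptor, had 81, 81 and 105 against 58, 33 and 67 (-2.39 ± 0.61, limma adjusted p = 0.215). Trem2 and Stat2 were also the genes without overlap in the list of genes shown or named by the study (6.45%, against 5.1% of all genes). Over its 31 members with a shared region the median shift was 0.04, and 18 were positive.

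In the Nrf2 list 15 of 25 genes (60.0%) had a positive shift, against 42.1% of all genes, with a median of 0.17 against -0.14. Ranks did not overlap in 2 genes nearer the top in LPS+Skatole (8.00%, against 5.1% of all genes) and in 3 nearer the top in LPS (12.0%, against 10%), shares close to those of all genes. Srxn1, sulfiredoxin, which restores peroxiredoxins, ranked 1853, 1989 and 2467 in LPS and 446, 551 and 917 in LPS+Skatole, with 101, 98 and 100 against 189, 174 and 160 fragments (1.78 ± 0.62, limma adjusted p = 0.366). Sod2, the mitochondrial superoxide dismutase, had shift 1.30 with fragments that overlapped, 141, 143 and 158 against 149, 161 and 203, on a background of 20.4, 19.9 and 21.5 against 5.32, 5.01 and 22.1, and its difference in fragments was -0.14 on the log2 scale once centred on the median of shared regions. Keap1 (-1.27), Prdx3 (-1.20) and Pgd (-1.02) had all ranks nearer the top in LPS. Keap1 also had a lost region at equal length, where 2 of 27 genes of the list (7.41%) had one against 1.82% of all genes. In the full lists that Keap1 region had a peak of 16 fragments in LPS+Skatole replicate 1, which the cut removed. Hmox1, heme oxygenase 1, had shift 0.02 and Gclc, the catalytic partner of Gclm, -0.05, both with ranks that overlapped.

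Among metabolic genes complexes II and III had a median of -0.60, with 2 of 12 genes (16.7%) positive against 42.1% of all genes. Ranks were all nearer the top in LPS at 2 of the 12 (16.7%, against 10%). Sdhb, a succinate dehydrogenase subunit, had 122, 92 and 149 fragments in LPS and 85, 97 and 76 in LPS+Skatole (-2.05 ± 0.64, limma adjusted p = 0.311), and Sdhc, a second subunit of that enzyme, 59, 66 and 56 against 40, 42 and 43 (-1.59 ± 0.52). The ranks of both did not overlap. In complex I Ndufa5, Ndufb8 and Ndufc2 lay nearer the top with skatole and Ndufab1, Ndufb10 and Ndufs1 in LPS, with a list median of -0.05. Each side was 3 of 33 genes (9.09%), against 5.1% and 10% of all genes. Complex IV had -0.18 and complex V -0.38. In glycolysis Slc2a1, the glucose carrier, ranked 379, 253 and 327 in LPS and 807, 1587 and 860 in LPS+Skatole (-1.71 ± 0.61), while the list median was 0.15. With Eno1 it made 2 of 18 genes (11.1%, against 10%) all nearer the top in LPS. The NADPH oxidase list had -0.81, with 2 of 8 genes positive. Cybb, its catalytic subunit, was all nearer the top in LPS (-0.57), 1 gene of 8 (12.5%, against 10%). Glutathione metabolism had -0.21, with 10 of 30 (33.3%) positive, near the 42.1% of all genes. Ribosomal proteins had -0.59, with 15 of 46 (32.6%) positive, 8 genes (17.4%, against 10% of all) all nearer the top in LPS and 1 (2.17%, against 5.1%) in LPS+Skatole. Genes of other tissues had -0.11 over 7 genes. Ribosomal protein and complex II and III regions lie at gene ends, where the median over all regions was also negative, and the part of location in these medians was not tested.

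**Figure D5:**
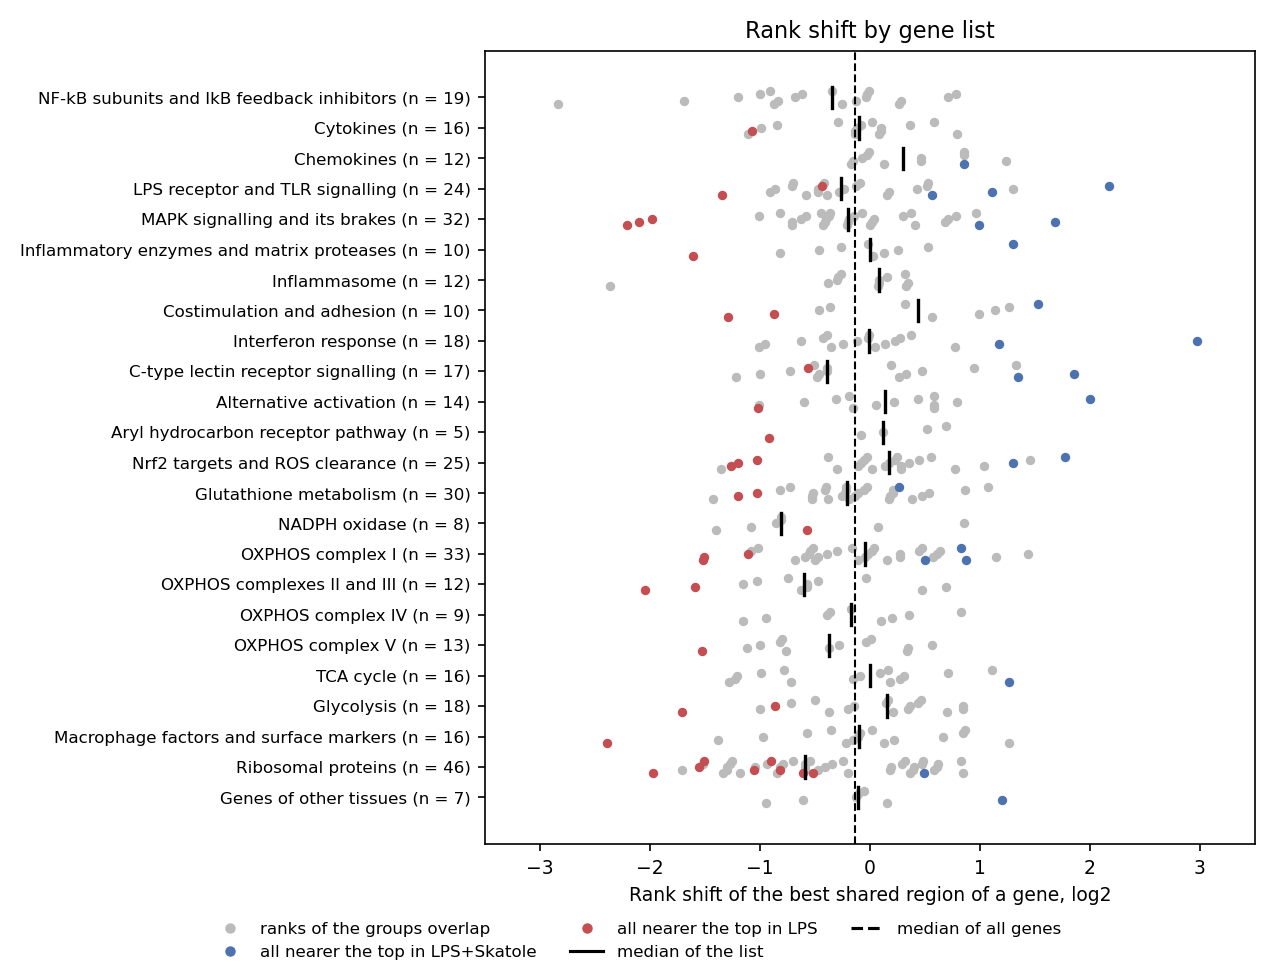
Rank shift of the best shared region of each gene (x axis, log2) by gene list (y axis, n genes with a shared region), with the list's median as a bar, the median of all genes (-0.14) as a dashed line, and colours for genes whose ranks did not overlap between groups. Points lie on both sides of 0 in every list.

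Genes with a gained region did not move as a group elsewhere. Their 1569 shared regions had a median shift of 0.05, with 7.71% all nearer the top in LPS+Skatole and 6.56% in LPS, near the 6.95% and 7.77% over all shared regions. The 423 shared regions of genes with a lost region had a median of -0.08, with 6.15% and 6.62%.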

How the data were processed

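CUT&Tag for p65 was run on RAW264.7 cells, 3 libraries per group. The authors deposited one list of called peaks per library, with no pooling stated, whose columns hold a score, the fold enrichment (a ratio) at the summit, and −log10 of the p-value and of the q-value; the score column was not used. Per the labels the processing notes name the mm10 build and the tools fastp 0.20.1, HISAT2 2.1.0 and StringTie 2.0, with no role; the peak caller is not given in the sources used here. Total reads per library are unknown.

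Only peaks on chromosomes 1 to 19, X or Y entered a comparison. The fragments at a summit and the local background were solved from the deposited fold enrichment and −log10 p under a Poisson model. Over 99.9% of values came out whole within 0.05. These counts are those of the best-ranked peak of a region. In a region with several peaks that need not be the same summit in each library. Ranks were compared with limma 3.58.1 in R 4.3.3 (trend, Benjamini-Hochberg over all 18524 shared regions, threshold 0.05) on log2 rank in lists of equal length. Gene positions came from RefSeq GRCm38.p6 (21883 protein-coding genes) with a window of 3 kb. Scripts used Python 3.11.15 with pandas 2.3.3 and scipy 1.17.1 and were tested on simulated data. Genes were named by these rules: the 10 gained and 10 lost regions of best mean rank; the 10 shared regions with the smallest p in each direction; genes of the 25 lists with a gained, lost or called region; genes that the study shows or names; and genes with 2 or more gained or lost regions. Some list genes whose ranks did not overlap between groups, and some textbook p65 or Nrf2 targets, were named besides, chosen after their values were seen. Members and lists were chosen with earlier results of these data known. Alternatives covered list length, the number of libraries, the q threshold, merging, window, the rank measure, the replicate block, the trend and leaving out each library. One gene of the lists is not reported here.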

Additional observations from a re-analysis of the deposited data

Results flagged for a closer look

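Peaks on sequences other than chromosomes 1 to 19, X and Y, which no comparison used, numbered 46, 41 and 50 after LPS alone and 64, 68 and 68 after LPS+Skatole. Both exceeded the 31, 26 and 30 after DMSO. The lists as a whole also grew in that order.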

How the results depend on the processing

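Counts moved with the rule more than with the merging or the threshold. Lists of equal length gave 784 gained regions and 488 genes with one, and the gained share of gained plus lost regions went from 81.9% to 67.8%. With a peak in at least 2 of 3 libraries there were 7641 gained and 2859 lost regions, at 4104 and 2025 genes. Under that rule 12 Nrf2 list genes (44.4%, against 22.9% of all genes) had a gained region. A lost one was found at 4 of the 27, where 11.3% of all genes had one. Gene ends alone gave 252 genes with a gained and 84 with a lost region, and 3 Nrf2 list genes. Leaving out 1 library gave 1837 to 3365 gained and 520 to 1189 lost regions, 1153 to 2084 and 430 to 939 genes, 6 to 9 Nrf2 list genes (22.2% to 33.3%, against 6.48% to 11.9% of all genes), and a difference in the gene end share of -4.82 to -4.10 points. Each of the 6 libraries moved both region counts past 1.5 times, since the rule is easier to meet with 2 libraries. Without LPS replicate 1 the gained share was 60.7%, the lowest, and without LPS+Skatole replicate 1 it was 86.5%, the highest.

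Of shared regions, 1 rose and 2 fell when ranked by fold, 5 and 13 by summit count, and 6 and 4 where every list had 1 peak in the region. Full lists gave 2 fallen, and the rank percentile and the fit without trend 0. Leaving out 1 library gave 0 to 1 risen and 0 to 4 fallen: 0 fell without LPS replicate 1 or 3, and 1 rose and 4 fell without LPS+Skatole replicate 3. The region near Csf2ra had limma adjusted p from 1.19e-05 to 0.954 over these settings. In fragments centred on the median of shared regions the Taf1d and Cep295 region was at -0.15 and Sod2 at -0.14, although both had more fragments on average with skatole before centring. Of 976 values for 74 named regions, 951 kept direction and side of the threshold. These regions were picked in these data for a small p or for ranks without overlap. All but the one near Csf2ra were above the threshold to begin with, so keeping their side mostly meant staying uncalled. This count is therefore no evidence that the shifts are stable. Not every region had a value in each setting: ranked by fold, 48 were the same, 2 stronger and 1 weaker. The replicate block gave 3 risen and 2 fallen, but same-numbered libraries did not deviate together (correlations 0.0106, 0.000168 and 0.00495), so the numbers do not pair them. No summit under 11 fragments was called in the 6 libraries compared, so a region counted as absent can still hold fragments. On a high local background, as at Ndufb4, Osgin1 and Ptges, a call needs more fragments than that. An absent peak there can hide more of them.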
